A study of Mus musculus with 11 samples.

Results

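The 39 HOX genes of the mouse were examined in primary mouse embryonic palatal mesenchyme cells (MEPMs), which form the connective tissue of the palate, cultured from embryos at E13.5. Members were all genes of the HoxA, HoxB, HoxC and HoxD clusters with a number from 1 to 13, expressed or not, without antisense transcripts. All 39 had a row, among 23286 rows in the table. The cells were grown in 10% serum and held overnight in 0.1% serum. For 3 libraries the cells then received FGF1 at 50 ng/mL together with heparin at 1 µg/mL, for 1 h. A further 4 libraries came from cells given PDGFA at 30 ng/mL for 1 h, and 4 from cells given no ligand (starved). The ligand doses thus differed. Strain and genotype are not given in the labels, and nothing there says whether libraries came from separate litters or cultures. Only the FGF1 cells received heparin, so effects of FGF1 and heparin cannot be told apart.

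PolyA RNA was sequenced, and levels are in FPKM, the fragments of a transcript divided by its length and by the mapped total. The authors' table gives 1 value per row and group. Square brackets after a value hold its deposited lower and upper bounds, whose confidence level is not stated. No value of a single library was used, and no comparison therefore has a replicate spread or a p-value. The bounds of low rows fell on whole multiples of a row-specific step in 2012 of 2197 rows tested (91.6%, within 0.01 of a step). With the transcript length, the step gave about the same scale in 1609 rows, 84.6% of the rows tested that were not short. In these rows 1 step is read here as about 1 fragment, an inference from the values that the authors do not state. On the median scale 1 fragment would be worth 0.0113 to 0.0436 FPKM across the HOX transcripts, by their GENCODE M21 lengths. Hoxd8 departs from that scale: its step is 0.0267 FPKM, against 0.0145 FPKM for 1 fragment by its GENCODE length. That length, 2634 bases, is longer than the whole locus of the Hoxd8 row, so it is not the length the authors used.

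HOX genes encode homeodomain transcription factors that give cells their position along the head-to-tail axis. Their order along each cluster matches where they are used, from paralog group 1 at the head end to paralog group 13 at the tail end. Neural crest of the first pharyngeal arch, which builds most of the palate, is classically described as free of HOX expression, while the second arch uses Hoxa2. HOX proteins bind DNA together with TALE homeodomain partners of the PBX, MEIS and PKNOX families, and silent clusters are held by Polycomb complexes.

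No HOX gene reached 1 FPKM in any group (0 of 39), against 11703 of 23286 rows (50.3%) that did so in at least 1 group. In bulk samples such as these, fewer cells of a type and less RNA per cell cannot be told apart. The highest value was 0.461 FPKM, for Hoxb9 in FGF1 cells, and the highest upper bound of any HOX row was 0.691. Added over all 39 genes the level was 1.08 FPKM in FGF1 cells, 1.00 in PDGFA cells and 1.03 in starved cells. The median HOX gene stood at 0 in all groups, against 0.864 FPKM for the median of all rows in starved cells. Genes just below 1 FPKM were absent from the family, since 0 of 39 reached 0.5 FPKM, against 12552 rows (53.9%).

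**Figure D1:**
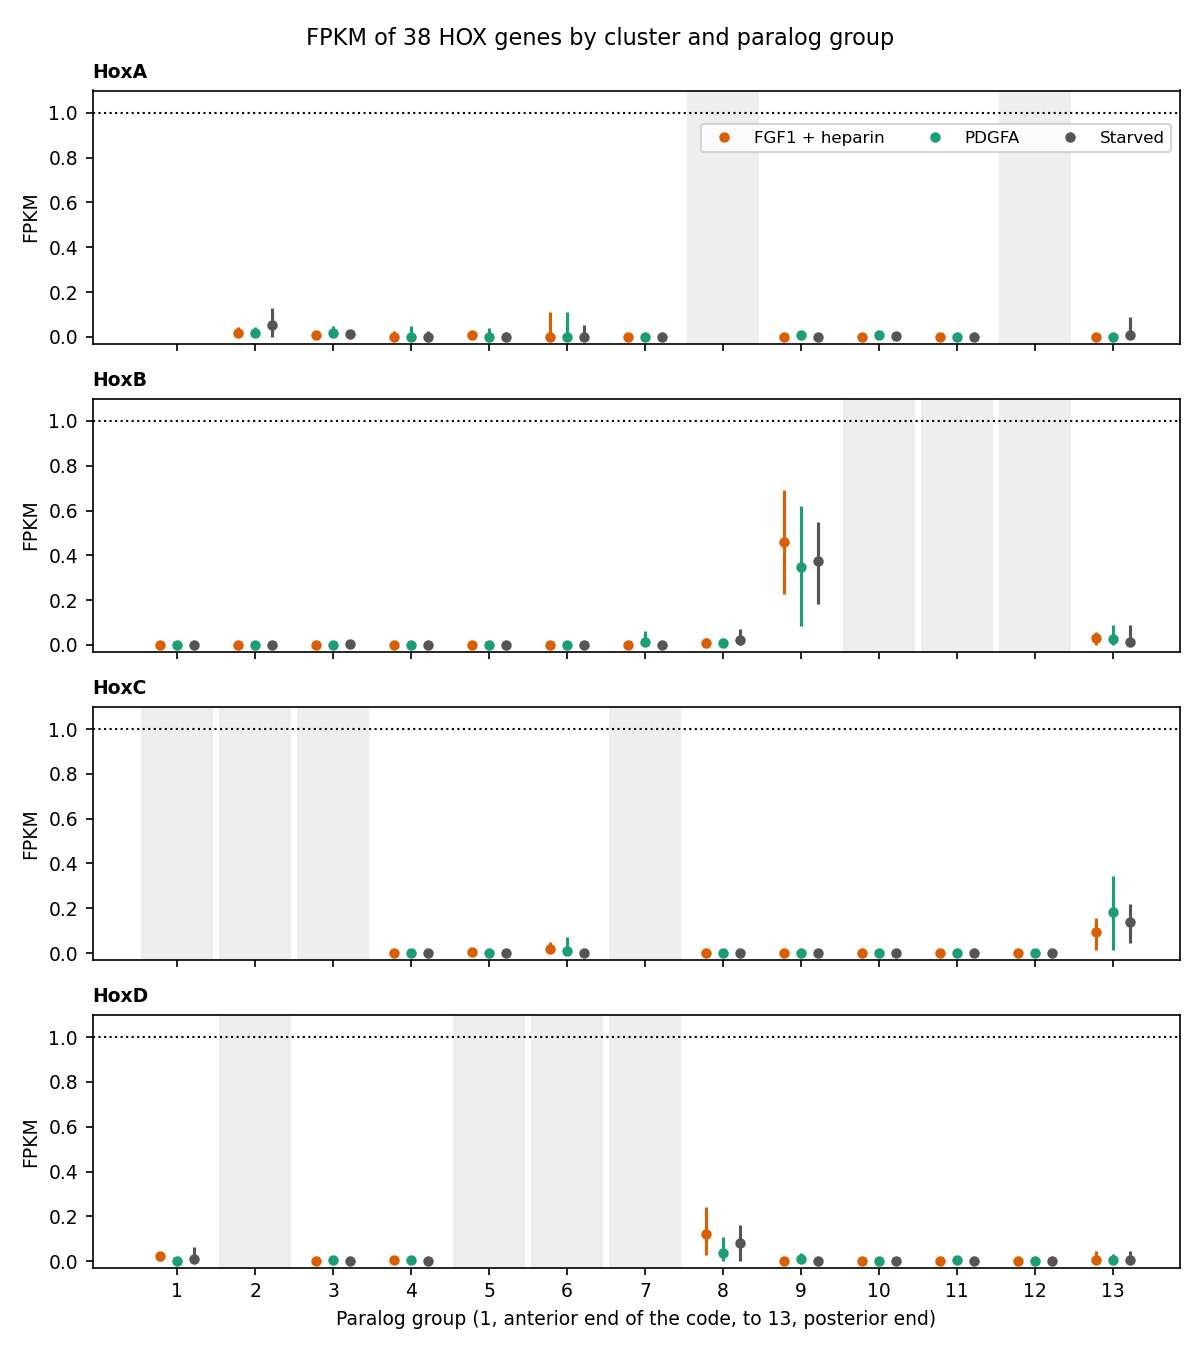
FPKM (linear axis) of 38 HOX genes by cluster (panels) and paralog group (horizontal axis) in FGF1 plus heparin, PDGFA and starved cells. Points are the authors' group values, vertical lines the deposited bounds, grey bands paralog groups the cluster lacks, and the dotted line 1 FPKM. Hoxb9, Hoxc13 and Hoxd8 are the plotted genes with a lower bound above 0 in a group, and no bound reaches 1 FPKM.

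By level the genes fell into 3 classes. In 4 genes the lower bound lay above 0 in at least 1 group, and Hoxb9, Hoxc13 and Hoxd8 of these are described. A further 18 had a value above 0 in at least 1 group with every lower bound at 0. The remaining 17 were listed at 0 in all groups. Over all rows, 5185 of 23286 (22.3%) were listed at 0 in all groups. For a row listed at 0, 3 fragments would be 0.0339 to 0.131 FPKM across the HOX transcripts, which is the level a count of 0 allows where a row follows that scale, for counting error only. The table had 2 rows with failed estimates, and neither was a HOX row.

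The coding homeoboxes of Hoxb9, Hoxc13 and Hoxd8 are shown because these genes lead their clusters by level and because near-identical paralogs could exchange reads. Each is the 180-base stretch for the homeodomain, 5′ to 3′ on the sense strand, from the GENCODE M21 transcript. Capitals mark the 18 bases for the invariant core of the recognition helix, the part of the homeodomain that lies in the major groove of DNA.
Hoxb9: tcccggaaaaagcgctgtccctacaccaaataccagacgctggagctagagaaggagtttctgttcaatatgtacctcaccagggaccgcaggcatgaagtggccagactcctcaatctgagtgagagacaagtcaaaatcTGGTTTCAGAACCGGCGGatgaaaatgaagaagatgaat
Hoxc13: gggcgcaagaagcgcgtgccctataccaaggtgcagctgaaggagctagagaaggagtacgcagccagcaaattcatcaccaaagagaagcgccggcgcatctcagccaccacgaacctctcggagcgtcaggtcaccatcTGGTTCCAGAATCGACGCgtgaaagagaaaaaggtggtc
Hoxd8: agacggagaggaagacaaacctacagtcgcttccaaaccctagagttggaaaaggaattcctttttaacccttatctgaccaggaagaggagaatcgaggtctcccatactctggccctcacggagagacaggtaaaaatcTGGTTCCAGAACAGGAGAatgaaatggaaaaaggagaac

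Among these 3 the homeoboxes matched at 51.7% (Hoxc13 and Hoxd8) to 60.6% (Hoxb9 and Hoxd8) of the 180 bases. The closest relative of each in the family was a paralog of the same group. Hoxb9 matched Hoxd9 at 84.4% of bases, with a longest identical run of 40 bases. Hoxd8 matched Hoxb8 at 80.6% and Hoxc13 matched Hoxa13 at 77.2%, with runs of 17 and 14 bases. The core codes for the same residues in all 39 genes, in 30 distinct base sequences. Over whole transcripts, at most 2.73% of the 31-base words of a HOX gene occurred in a transcript of another locus, with a median of 0.108%. Little of each transcript is thus shared with other loci. Genes that overlap the HOX gene itself were left out of this count.

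Hoxb9 belongs to the paralog group used in the thorax and flank. Its row lies at chr11:96271330-96276593 on the plus strand (mm10), in 2 exons. It had 0.461 FPKM [0.226 to 0.691] in FGF1 cells, 0.348 [0.0847 to 0.621] in PDGFA cells and 0.373 [0.183 to 0.550] in starved cells. In steps of about 1 fragment the bounds were 16 to 49 in FGF1 cells, 6 to 44 in PDGFA cells and 13 to 39 in starved cells. The 3 intervals overlapped widely, and the gene was detected in every group. Even so, its starved value stood at or above only 46.1% of all rows. Its neighbours on the cluster were far lower: Hoxb8 had 0.0101 FPKM in FGF1 cells, 0.0108 in PDGFA cells and 0.0223 in starved cells. Hoxb13, the next HOX gene on the other side, had 0.0321, 0.0264 and 0.0110 FPKM in FGF1, PDGFA and starved cells.

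Hoxc13, at the tail end of HoxC, is known for its role in hair and nail keratin expression. Its row lies at chr15:102921131-102928814 on the plus strand, in 2 exons. It had 0.0937 FPKM [0.0157 to 0.157] in FGF1 cells, 0.184 [0.0157 to 0.344] in PDGFA cells and 0.140 [0.0470 to 0.219] in starved cells. The lower bound was 1 step in FGF1 cells, 1 in PDGFA cells and 3 in starved cells. The values themselves were 5.99, 11.8 and 8.96 steps in those groups, so this row rests on few fragments. The adjacent Hoxc12 was listed at 0 in all groups.

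Hoxd8 was the lowest of the 3 in PDGFA and starved cells. Its row lies at chr2:74705489-74707307 on the plus strand, and its GENCODE M21 transcript has 2 exons. It had 0.123 FPKM [0.0267 to 0.241] in FGF1 cells, 0.0360 [0 to 0.107] in PDGFA cells and 0.0813 [0 to 0.160] in starved cells. Only in FGF1 cells was its lower bound above 0, at 1 step, and the intervals of all 3 groups overlapped. The antisense gene Hoxd3os1 overlaps that GENCODE M21 transcript. Since the transcript is longer than the locus of the row, an overlap with the row itself is not shown. The row of Hoxd3os1 was listed at 0 in all groups. That row lies at chr2:74710044-74748271, outside the Hoxd8 row, so its 0 would not cover an overlap there. The strand setting of the libraries is not given in the sources used here, so reads of the pair could not be told apart where they overlap.

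**Figure D2:**
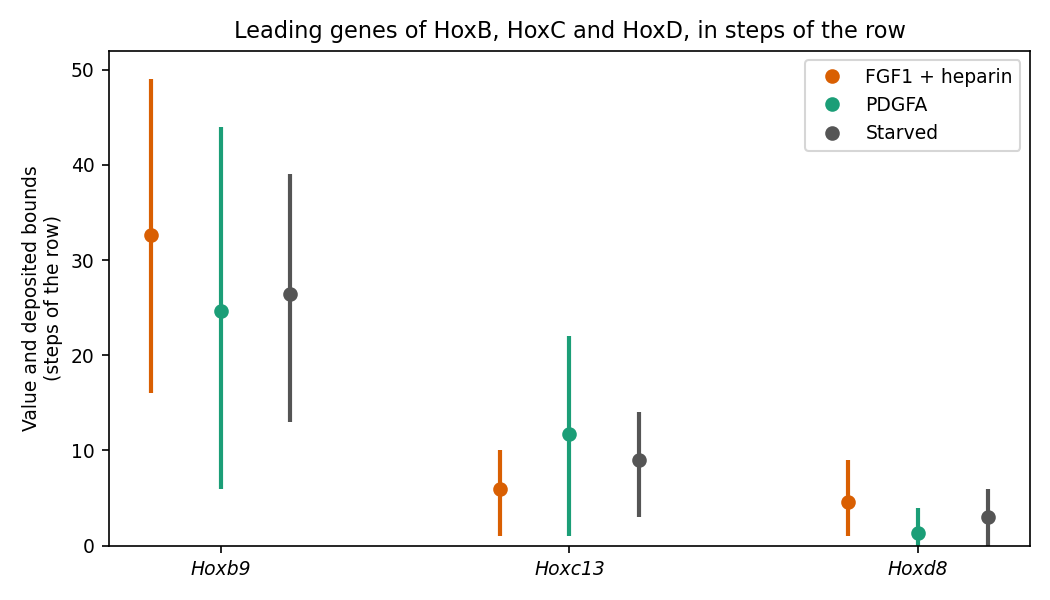
Value (points) and deposited bounds (lines) of the leading genes of HoxB, HoxC and HoxD, divided by the step of each row, for FGF1 plus heparin, PDGFA and starved cells. The axis is linear from 0, and steps of different genes differ in FPKM (0.0141 for Hoxb9, 0.0157 for Hoxc13 and 0.0267 for Hoxd8), so heights compare groups within a gene. Within each gene the 3 lines overlap, and only Hoxd8 has lower bounds at 0, in PDGFA and starved cells.

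In order of starved level the 3 genes ran Hoxb9, Hoxc13 and Hoxd8. Neighbours in that order had overlapping intervals in starved cells, and only the ends, Hoxb9 and Hoxd8, lay apart there. By cluster, HoxB held 46.5% of the sum in FGF1 cells, 39.8% in PDGFA cells and 39.8% in starved cells. HoxA held 28.1%, 34.3% and 37.5%, HoxC 10.9%, 19.2% and 13.6%, and HoxD 14.5%, 6.71% and 9.08% in FGF1, PDGFA and starved cells. These shares describe very low totals: without Hoxb9, HoxB held 6.79% in FGF1 cells, 7.78% in PDGFA cells and 5.65% in starved cells.

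Hoxa2, the selector gene of the second pharyngeal arch, had the highest value in starved cells of the 18 genes whose lower bounds were all 0. In FGF1 and PDGFA cells Hoxb13 was higher, at 0.0321 and 0.0264 FPKM. Hoxa2 was singled out after its values were seen. It had 0.0159 FPKM [0 to 0.0429] in FGF1 cells, 0.0149 [0 to 0.0429] in PDGFA cells and 0.0513 [0 to 0.129] in starved cells. Hoxb2, its paralog, was listed at 0 in all groups. Hoxa3 and Hoxb3, of the group used in the third arch, reached at most 0.0190 FPKM (PDGFA cells) and 0.00390 FPKM (starved cells), and Hoxd3 at most 0.00541 FPKM (PDGFA cells). That Hoxd3 value lies above its own upper bound of 0, and 4 HOX rows in all had a value outside its own interval in a group. Of the 18 genes, 9 were above 0 in 1 group, 4 in 2 groups and 5 in all 3, and their highest values ran from 0.00390 to 0.0513 FPKM. These were Hoxa2, Hoxa3, Hoxa5, Hoxa9, Hoxa10, Hoxa13, Hoxb3, Hoxb7, Hoxb8, Hoxb13, Hoxc5, Hoxc6, Hoxd1, Hoxd3, Hoxd4, Hoxd9, Hoxd11 and Hoxd13.

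The 17 genes listed at 0 in all groups were Hoxa4, Hoxa6, Hoxa7, Hoxa11, Hoxb1, Hoxb2, Hoxb4, Hoxb5, Hoxb6, Hoxc4, Hoxc8, Hoxc9, Hoxc10, Hoxc11, Hoxc12, Hoxd10 and Hoxd12. In 15 of them every bound was also 0, and Hoxa4 and Hoxa6 had upper bounds above 0. They made up 4 of 11 genes of HoxA, 5 of 10 of HoxB, 6 of 9 of HoxC and 2 of 9 of HoxD. Paralog group 12 was the only group of the 13 with all its genes at 0. Hoxb9, Hoxc13 and Hoxd8 stood in paralog groups 9, 13 and 8, and none had a neighbour within the same cluster whose lower bound was above 0. Summed by paralog group, group 9 had 0.461 FPKM in FGF1 cells, 0.364 in PDGFA cells and 0.373 in starved cells. Group 13 had 0.132, 0.217 and 0.165 FPKM in FGF1, PDGFA and starved cells.

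The promoter sequences of a second-arch gene and a tail-end gene that were both near or at 0 are shown because base composition differs widely between HOX promoters. RefSeq promoter sequences (GRCm38.p6, 250 bases before to 50 after the start) matched 22 of the 39 genes with 24 starts. Capitals mark each CG dinucleotide, the motif searched, which reads the same on both strands. The first lies at chr6:52164782-52165081 and the second at chr6:52260831-52261130, both on the minus strand.
Hoxa2: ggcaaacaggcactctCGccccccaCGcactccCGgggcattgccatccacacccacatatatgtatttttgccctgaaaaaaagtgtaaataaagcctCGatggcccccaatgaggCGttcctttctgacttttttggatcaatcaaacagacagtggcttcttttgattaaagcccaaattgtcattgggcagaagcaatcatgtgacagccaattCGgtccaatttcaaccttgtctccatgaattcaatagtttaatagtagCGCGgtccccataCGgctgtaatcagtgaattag
Hoxa13: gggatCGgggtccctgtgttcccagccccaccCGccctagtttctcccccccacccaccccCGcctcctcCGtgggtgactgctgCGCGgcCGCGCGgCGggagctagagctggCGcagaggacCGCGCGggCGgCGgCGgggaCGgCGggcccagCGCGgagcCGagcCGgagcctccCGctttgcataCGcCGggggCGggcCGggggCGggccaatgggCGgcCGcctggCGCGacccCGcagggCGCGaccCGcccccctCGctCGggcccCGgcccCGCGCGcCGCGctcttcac

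The Hoxa2 sequence holds 9 CG dinucleotides and the Hoxa13 sequence 45. The median was 14.5 over the 24 HOX promoters, against 7 over 32851 promoters of all genes, and 100% of HOX promoters against 94.6% of all held at least 1 CG. Both genes were low in every group. Hoxa13, which patterns the tail end of the limb and body axis, had 0.00855 FPKM [0 to 0.0870] in starved cells and was listed at 0 in FGF1 and PDGFA cells.

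Rows at 1 FPKM or more were found again on both sides of every cluster. HoxA covered 105.5 kb, HoxB 173.9 kb, HoxC 115.7 kb and HoxD 96.8 kb by their rows. Of 12 rows of other genes inside the clusters, 11 were listed at 0 in all groups, among them the antisense and non-coding RNA genes Hoxaas3, Hoxa11os, Hoxd3os1 and Hotair. The microRNA genes Mir196b, Mir196a-1, Mir10a, Mir196a-2, Mir615 and Mir10b were also among the 11. Their 0 says little, because only polyA RNA was sequenced. The exception among the 12 was Gm53, a long non-coding RNA gene between Hoxb13 and Hoxb9, named after its values were seen. Gm53 had 0.692 FPKM [0.185 to 1.17] in FGF1 cells, 0.269 [0 to 0.494] in PDGFA cells and 0.245 [0 to 0.432] in starved cells, with intervals that overlapped. On the outer sides, Mtx2, a mitochondrial import gene 60.7 kb from HoxD, had 37.6 FPKM [23.0 to 51.6] in FGF1 cells, 33.4 [17.2 to 49.6] in PDGFA cells and 36.4 [24.7 to 46.6] in starved cells. Lnpk, 89.4 kb from the other side of HoxD, had 5.26, 4.47 and 5.29 FPKM in FGF1, PDGFA and starved cells. The nearest row at 1 FPKM or more in starved cells lay 143 kb (Skap2) and 285 kb (Hibadh) from HoxA. For HoxB it lay at 119 kb (Atp5g1) and 399 kb (Snx11), and for HoxC at 199 kb (Calcoco1) and 116 kb (Smug1). The EVX homeobox genes next to the tail ends of HoxA and HoxD were also near 0. Evx1 had 0.00932 FPKM in FGF1 cells, 0.00546 in PDGFA cells and 0 in starved cells, and Evx2 was listed at 0 in all groups.

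**Figure D3:**
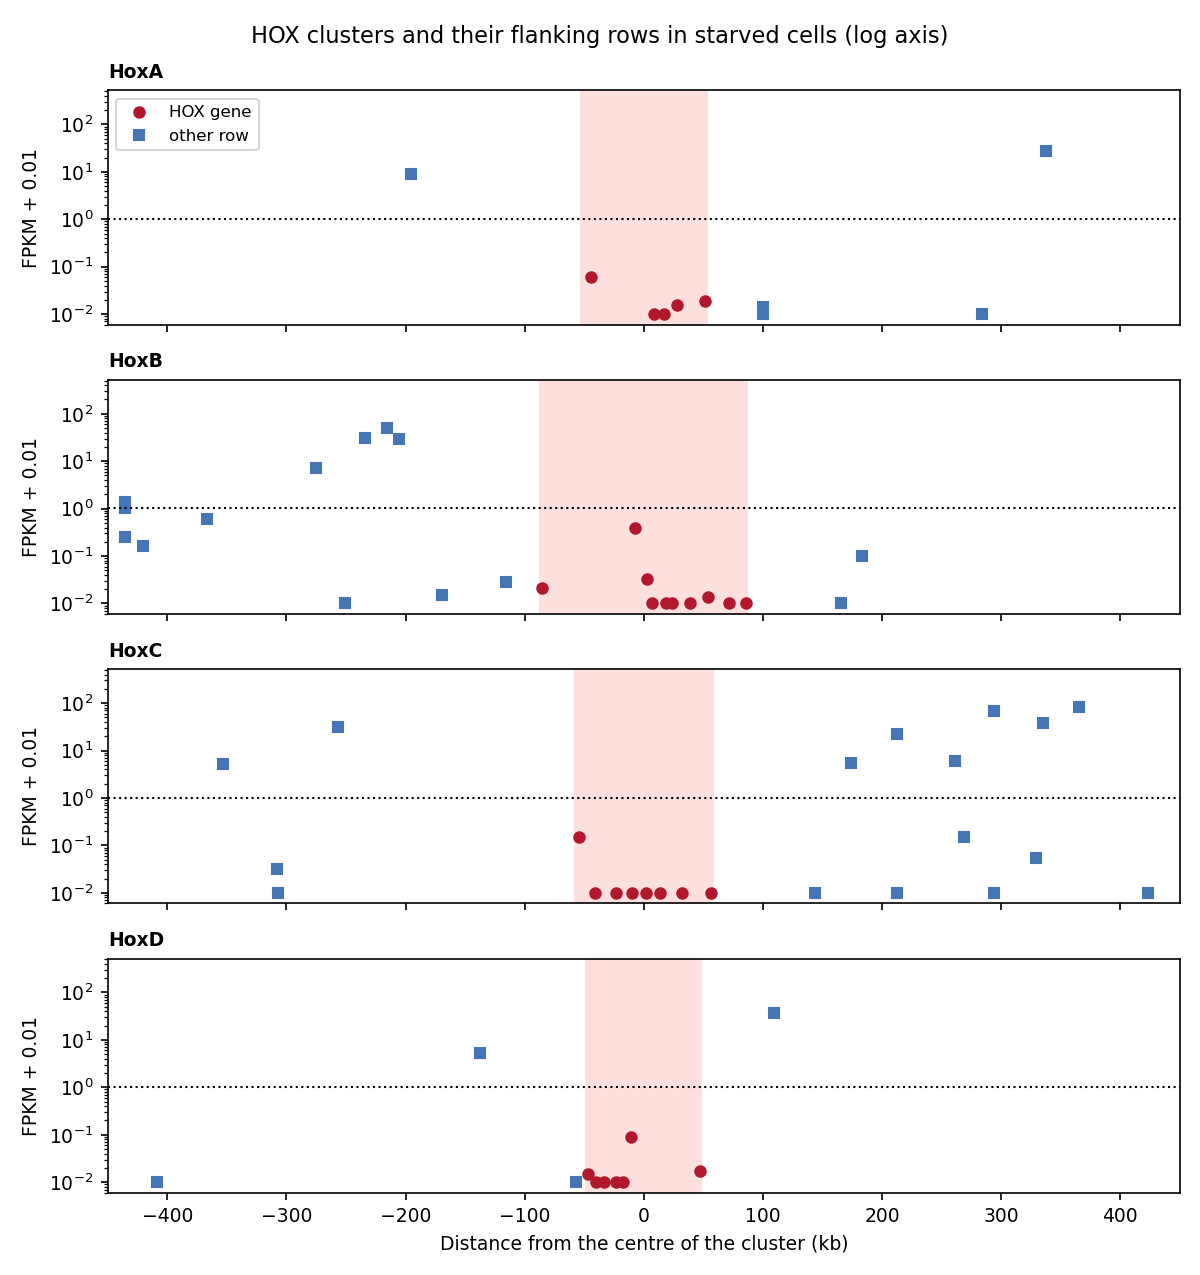
FPKM + 0.01 in starved cells (log axis) against distance from the centre of each HOX cluster, in kb. Red circles are 30 HOX genes whose row has a locus of its own, blue squares the 39 flanking rows of other genes within 450 kb, pink bands the clusters, and the dotted line 1 FPKM. Every plotted HOX gene lies below the dotted line, and the flanking row above it that is nearest to a cluster's edge is Mtx2, 60.7 kb from HoxD.

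Neither ligand moved a HOX gene past the rule used for a call. Calls required deposited intervals with no overlap between the groups, and an FPKM within its own bounds in each. Rows also needed at least 1 FPKM in some group. No HOX row met that minimum, so 0 of 39 entered any of the 3 comparisons. Among the 11702 rows that did, 0.555% were called for FGF1 plus heparin against starved cells, 0.308% for PDGFA against starved cells and 0.12% for FGF1 plus heparin against PDGFA. With no minimum, 0 of 39 HOX rows were called in each comparison. The share called over all 23284 rows was then 0.292% for FGF1 plus heparin against starved cells, 0.176% for PDGFA against starved cells and 0.0816% for FGF1 plus heparin against PDGFA. With shares that low, 0 of 39 does not set the HOX genes apart from other rows.

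For Hoxb9, Hoxc13 and Hoxd8 the size of change that the bounds allow was wide. Log2 folds were taken on FPKM + 0.5, which understates the change of rows this low. The range after each runs from the lower bound over the opposing upper bound to the reverse. Hoxb9 had a log2 fold of 0.14 (−0.53 to 0.80) for FGF1 plus heparin over starved cells, −0.04 (−0.85 to 0.71) for PDGFA over starved cells and 0.18 (−0.63 to 1.03) for FGF1 plus heparin over PDGFA. In those comparisons Hoxc13 had −0.11 (−0.48 to 0.26), 0.10 (−0.48 to 0.63) and −0.20 (−0.71 to 0.35), and Hoxd8 had 0.10 (−0.33 to 0.57), −0.12 (−0.40 to 0.28) and 0.22 (−0.20 to 0.57). Every one of these ranges included 0. Over all 39 genes the log2 folds ran from −0.11 to 0.14 for FGF1 plus heparin over starved cells, with 9 genes higher, 8 lower and 22 equal. For PDGFA over starved cells they ran from −0.12 to 0.10, with 12 higher, 8 lower and 19 equal. For FGF1 plus heparin over PDGFA they ran from −0.20 to 0.22, with 8 higher, 12 lower and 19 equal. The HOX median was 0 in each comparison, and so was the median over all 23284 rows with no minimum. The comparisons share groups with each other. Over compared rows the typical interval reached 34.7% of the FPKM to either side in FGF1 cells, 49.6% in PDGFA cells and 25.6% in starved cells (medians), so PDGFA cells had the least precise values.

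**Figure D4:**
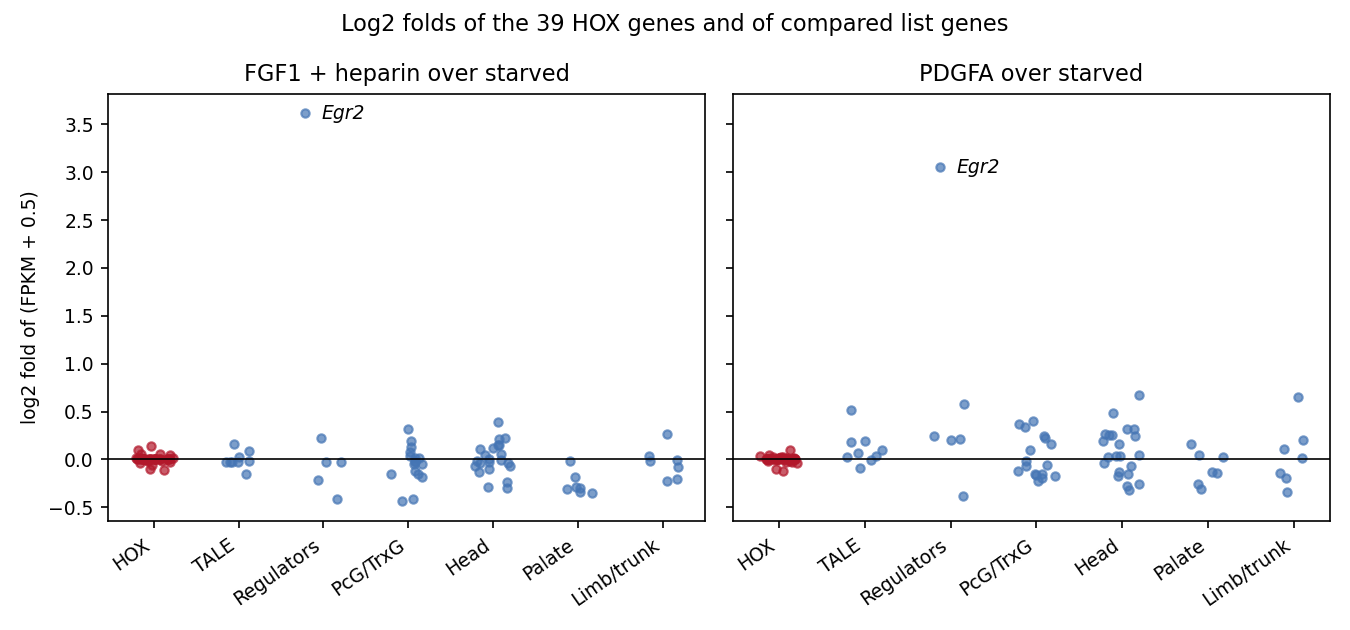
Log2 fold of (FPKM + 0.5) for FGF1 plus heparin over starved cells (left) and PDGFA over starved cells (right), 1 point per gene. Red points are the 39 HOX genes with no minimum, and blue points the genes of 6 lists that reached 1 FPKM in a group. HOX points lie between −0.12 and 0.14, and Egr2 is the only called gene, at 3.62 and 3.05.

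The partners of HOX proteins were present. All 9 TALE genes had at least 1 FPKM in every group, with a median of 9.73 FPKM in FGF1 cells, 10.4 in PDGFA cells and 9.92 in starved cells. Meis3 had 16.7 FPKM [11.2 to 22.2] in FGF1 cells, 16.7 [8.44 to 25.05] in PDGFA cells and 15.6 [11.97 to 19.3] in starved cells. Meis2, a cofactor gene needed by cranial neural crest, had 13.3, 13.9 and 13.52 FPKM in FGF1, PDGFA and starved cells. None of the 9 was called in any comparison. Over all compared rows 0.555% were called for FGF1 plus heparin against starved cells, 0.308% for PDGFA against starved cells and 0.12% between ligands. With shares that low, the absence of calls does not set these genes apart from other rows. Their median log2 fold was −0.02 with FGF1 plus heparin and 0.07 with PDGFA over starved cells, against 0.02 and −0.00287 over all compared rows.

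**Figure D5:**
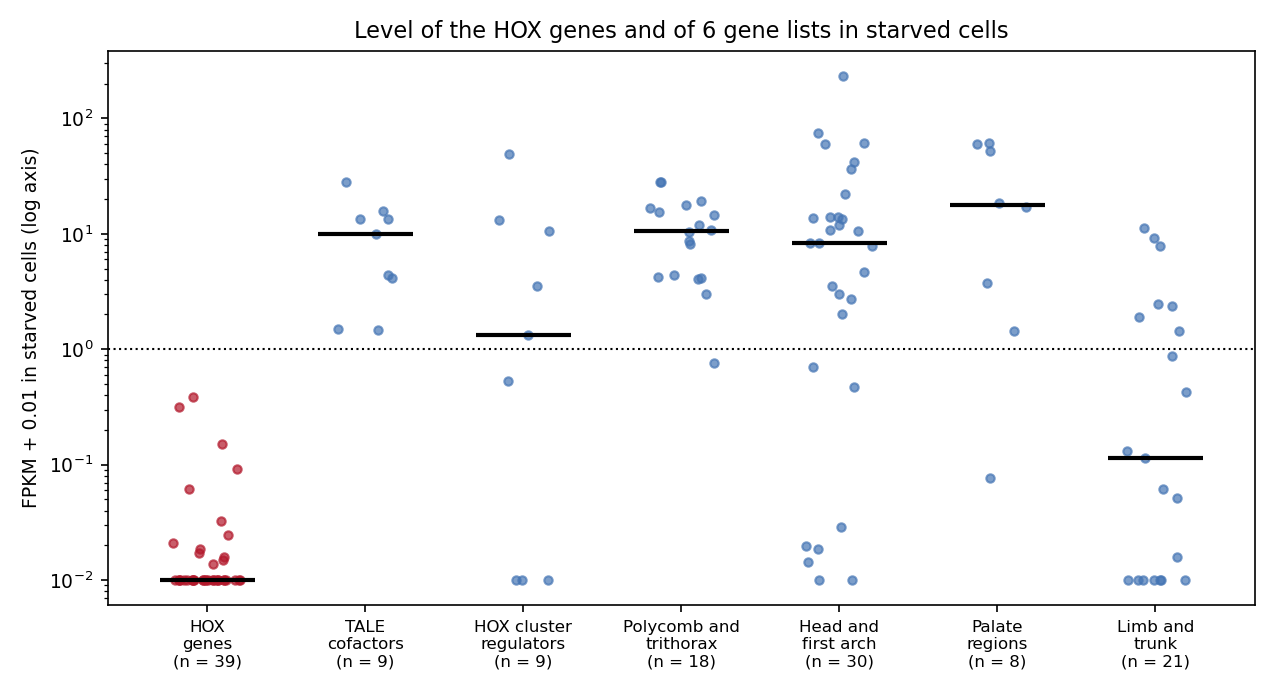
FPKM + 0.01 in starved cells (log axis) of the 39 HOX genes and of 6 gene lists, 1 point per gene, with n under each name. Black bars are medians and the dotted line is 1 FPKM. The HOX genes lie below the line, and all 9 TALE cofactor genes lie above it.

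Polycomb and trithorax genes, which keep HOX clusters off or on, were also present. Of 18 with a row, 17 had at least 1 FPKM in every group, the exception being Cbx7, of the canonical Polycomb complex, at 0.730, 0.744 and 0.745 FPKM in FGF1, PDGFA and starved cells. Eed, a core subunit of the complex that methylates histone H3, had 32.3 FPKM [21.4 to 42.7] in FGF1 cells, 27.1 [14.5 to 39.7] in PDGFA cells and 28.3 [20.9 to 35.5] in starved cells. Rnf2, a ubiquitin ligase of the second complex, had 27.3, 24.6 and 27.9 FPKM, and Wdr5, of the trithorax-type complexes, had 20.3, 20.5 and 19.2. None of the 17 compared was called in any comparison, and their median log2 folds over starved cells were −0.03 with FGF1 plus heparin and −0.06 with PDGFA. At most 0.555% of all compared rows were called in a comparison, so this absence does not set them apart.

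Among 9 genes known to switch HOX clusters on, the 3 CDX genes, activators of trunk HOX genes, stood at 0.00946 FPKM or less. Cdx1 had 0.00946 FPKM in PDGFA cells and 0 in the others, and Cdx2 and Cdx4 were listed at 0 in all groups. Receptors for retinoic acid were present: Rarg had 48.4, 57.6 and 49.5 FPKM and Rara 15.5, 15.2 and 13.1 FPKM in FGF1, PDGFA and starved cells. Gdf11, a ligand that promotes tail-end HOX genes, had 10.4, 12.5 and 10.5 FPKM in those groups. One gene of the 9, Egr2 (Krox20), was called higher with either ligand. Over all compared rows 0.538% were called higher with FGF1 plus heparin and 0.308% with PDGFA. Egr2 had 12.02 FPKM [7.86 to 16.2] in FGF1 cells, 7.96 [3.40 to 12.5] in PDGFA cells and 0.519 [0.283 to 0.745] in starved cells. Its log2 fold was 3.62 with FGF1 plus heparin and 3.05 with PDGFA over starved cells. EGR2 directly activates Hoxa2 and Hoxb2 in the hindbrain. At 1 h the Hoxa2 value was below the starved one in both ligand groups with overlapping intervals, and Hoxb2 was listed at 0. All lower bounds of Hoxa2 were 0, and 1 fragment of it would be worth 0.0215 FPKM. No direction can be read from values this low, and an effect of EGR2 on either gene was not tested.

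Position genes of the head had clear levels. Of 30 head and first-arch transcription factor genes, 22 had at least 1 FPKM in every group, with a median over the list of 8.56 FPKM in FGF1 cells, 8.92 in PDGFA cells and 8.34 in starved cells. Prrx1, a mesenchymal homeobox gene, had 228 FPKM [147 to 310] in FGF1 cells, 206 [89.9 to 323] in PDGFA cells and 233 [171 to 295] in starved cells. Prrx2 had 86.8, 93.3 and 74.95 FPKM, and Barx1, a first-arch homeobox gene, had 60.1, 62.6 and 60.7 in FGF1, PDGFA and starved cells. Otx2, the homeobox gene of the forebrain and midbrain, was listed at 0 in all groups. None of the 22 compared was called, and their median log2 fold over starved cells was −0.01 with FGF1 plus heparin and 0.04 with PDGFA. Regional genes of the palate, a list that shares Barx1 and Msx1 with the previous one, were at 1 FPKM or more in 7 of 8 cases, and Tbx22 was the exception at 0.0919, 0.0812 and 0.0672 FPKM in FGF1, PDGFA and starved cells. Msx1, of the anterior palate, had 48.7 FPKM [32.5 to 64.8], 50.0 [25.5 to 74.6] and 59.8 [46.7 to 72.9], and Osr1 had 41.9, 47.7 and 52.1, in FGF1, PDGFA and starved cells. Of the 7 compared none was called, with median log2 folds over starved cells of −0.30 with FGF1 plus heparin and −0.13 with PDGFA. Since at most 0.555% of all compared rows were called in a comparison, the absence of calls sets neither the head nor the palate list apart.

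Limb and trunk position genes were mostly low: 14 of 21 lay below 1 FPKM in starved cells, and the median was 0.106 FPKM in FGF1 cells, 0.121 in PDGFA cells and 0.105 in starved cells. Over all rows, 11440 of 23286 (49.1%) had at least 1 FPKM in starved cells. Tbx5, the forelimb T-box gene, was listed at 0 in all groups, and Tbx4, its hindlimb relative, had 0.106, 0.121 and 0.105 FPKM in FGF1, PDGFA and starved cells. Highest were Tbx2 with 13.7, 17.98 and 11.3 FPKM, Tbx3 with 9.41, 9.95 and 9.19, and Tbx15 with 6.63, 6.77 and 7.80, in FGF1, PDGFA and starved cells. None of the 7 compared was called, against at most 0.555% of all compared rows in a comparison, so this does not set them apart.

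The labelled cell type was checked on its markers. Of 10 palatal mesenchyme markers 9 had at least 1 FPKM in every group, and Col1a1 was listed at 0 with a failed estimate in all of them. Markers of blood cells reached 1 FPKM in 0 of 5 cases. Epithelial markers did so in 1 of 8 (Krt18) and endothelial markers in 2 of 6. For cartilage and bone 3 of 6 did so in every group (Sox9, Col2a1 and Runx2), with summed levels of 105, 95.4 and 99.9 FPKM in FGF1, PDGFA and starved cells. Most of that was Col2a1, at 79.9, 69.1 and 74.9 FPKM in those groups. Neuronal and glial markers did so in 2 of 8 in FGF1 cells, 1 in PDGFA cells and 2 in starved cells, with Tubb3 at 44.8, 49.8 and 36.99 FPKM in FGF1, PDGFA and starved cells. Skeletal muscle markers did so in 3 of 9 in FGF1 cells, 6 in PDGFA cells and 3 in starved cells, with summed levels of 30.9, 111 and 23.8 FPKM. Acta1 and Actc1 were called higher in PDGFA cells than in starved cells, while the summed HOX level was 1.00 FPKM in PDGFA cells and 1.03 in starved cells. Their part in the HOX values was not tested.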

How the data were processed

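PolyA RNA-seq of 11 libraries was deposited as 1 table. The build was mm10 and the tools named were CASAVA, TopHat and Cuffdiff, per the submitters' processing notes. For versions, roles, annotation, strand and reads with several matches, nothing is given in the sources used. Per the file headers, the deposited FPKM values are 1 per row and group, each with bounds. Since FPKM divides by the mapped total, a large change in some genes moves the others.

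Accessions were matched to RefSeq GRCm38.p6 symbols (22992 of 23286 rows), positions printed 1-based, and transcript lengths, 31-base words, homeoboxes and strand overlaps taken from GENCODE M21. Some authors' transcripts may differ in length. Of the HOX genes 8 share a locus with other rows, and the GENCODE transcripts of 13 overlap an opposite-strand gene. Calls, folds (pseudocount 0.5 FPKM) and lists are as defined in the results. The call rule and step finder were tested on simulated data. For the call rule the simulation used only rows with at least 1 FPKM in a group, so it says nothing of rows as low as the HOX genes. The members, lists and call rule were chosen with earlier results of these data known. Named genes were the leading gene of each cluster, genes called or at 1 FPKM, and the 3 highest of each list; other genes were picked with their values in view. Some genes that this rule names are not reported here. Alternatives varied the minimum, pseudocount, scaling and call rule. Python 3.11.15, numpy 2.4.6, pandas 2.3.3 and matplotlib 3.10.9 were used.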

Additional observations from a re-analysis of the deposited data

How the results depend on the processing

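No paired analysis was possible because the table holds 1 value per group and no values per library, and for the same reason no replicate could be left out. The count of HOX rows called was 0 in all 3 comparisons under 7 alternatives (minimum of 0.5 FPKM or none, median-of-ratios or quantile scaling, no demand that a value lie in its own interval, a fold of at least 1.5, and each FPKM outside the other group's interval). Only the alternative with no minimum compared any HOX row, so the others say nothing of their stability. Over all compared rows, asking only that each FPKM lie outside the other group's interval gave 206 calls in place of 65 for FGF1 plus heparin against starved cells, 113 in place of 36 for PDGFA against starved cells, and 60 in place of 14 between ligands. The planned minimum of 1 FPKM (and that of 0.5) left 0 HOX rows for a median log2 fold, so the median given is over all 39 genes with no minimum. It was 0 in each comparison under both other pseudocounts and both other scalings. That median could hardly move, so it says little of stability. In FGF1 plus heparin against starved cells 22 of the 39 folds set 0 against 0. The count was 19 for PDGFA against starved cells and 19 between ligands, with other genes on both sides.

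At a threshold of 0.5 FPKM the count of expressed HOX genes stayed 0 in each group. At 0.1 FPKM it was 3 in each, and with a lower bound above 0 it was 4 in FGF1 cells, 3 in PDGFA cells and 3 in starved cells. Each HOX gene had 1 row, so taking the highest row changed nothing. Without Hoxb9 the share of the summed HOX FPKM was 48.995%, 52.6% and 58.8% for HoxA, 6.79%, 7.78% and 5.65% for HoxB, 18.9%, 29.4% and 21.3% for HoxC, and 25.3%, 10.3% and 14.2% for HoxD, in FGF1, PDGFA and starved cells. All 36 log2 folds of Hoxb9, Hoxc13 and Hoxd8 recomputed under other pseudocounts and scalings stayed inside the range that the deposited bounds allow at the same pseudocount. For the other pseudocounts this was fixed in advance, because each FPKM of these genes lies inside its own bounds. Only the other scalings could have given a fold outside the range. Most HOX values here were at 0 or near it, although Hoxb9 stood at 32.7, 24.7 and 26.4 steps in FGF1, PDGFA and starved cells. Differences under the range of the bounds were not detectable. Whether sequencing depth or another source sets the width of the bounds was not tested.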
